A study of Arabidopsis thaliana with 12 samples.

Results

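This account concerns 134 Arabidopsis thaliana genes whose transcripts were more abundant than in control roots after 1 h of dexamethasone (DEX) and less abundant than in control roots after 4 h. They were chosen by their values among 28775 loci in the deposited counts. A locus was kept when its mean over 12 libraries was at least 2 CPM (counts scaled to a library total of 1000000), which 17491 loci met. A member then had to have a log2 ratio of DEX 1 h over control of at least 0.35 and a log2 ratio of DEX 4 h over control of at most -0.4, each computed from group means with 0.5 CPM added. Its lowest DEX 1 h library had to exceed its highest control library, and its highest DEX 4 h library had to lie below its lowest control library. The values at 1 h, at 4 h and in control therefore chose the genes and are given below as a description without a test. The libraries at 2 h entered the choice through the 2 CPM mean alone and were tested.

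The samples were root meristems of Col-0 seedlings that carried pRPS5A::DOF2.1-GR, and every group carried this construct. Groups were DEX for 1 h, 2 h and 4 h at 10 µM and a control labelled 1 h, with 3 libraries each, made from 300 root tips per sample of seedlings grown for 5 days. Whether the control seedlings were moved, and to what medium, is not given in the sources used here. Controls at 2 h or 4 h, and seedlings without the construct on DEX, were not analysed here, so time on DEX cannot be told apart from time after transfer. The labels call the libraries biological repeats and give no more about separate plantings.

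The construct uses the promoter of RPS5A, a ribosomal protein gene expressed where cells divide, to make the transcription factor DOF2.1 as a glucocorticoid receptor fusion. This protein waits in the cytoplasm and enters the nucleus once DEX binds it. DOF proteins are plant zinc finger factors that bind short DNA sites with an AAAG core. Several of the 134 genes belong to the response to abscisic acid, the hormone of drought and osmotic stress: receptors that bind the hormone block clade A protein phosphatases 2C (PP2C), and kinases so released raise dehydrins and other protective proteins. Others make or break down jasmonate, gibberellin and auxin, hormones of defence and of growth.

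Because DEX acts on a protein that is already made, the transcript level of DOF2.1 is no check of the labels. The counts of DOF2.1 (AT2G28510) cover the native gene and possibly the construct, and fell against control at each time, with log2 fold changes of -0.34 at 1 h (edgeR adjusted p = 0.0395), -0.41 at 2 h (adjusted p = 0.00498) and -0.73 at 4 h (adjusted p = 2.89e-05). Libraries held 14142082 to 17522834 counts. The libraries at 1 h were the least alike of any group. Repeats 1 and 3 there differed with a chi-square per locus of 19.5, against 3.05 to 8.46 for the other 11 pairs of libraries of 1 group. The 134 genes moved with this difference: repeat 1 was the highest DEX 1 h library for 92 of them and repeat 3 the lowest for 93.

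Upstream sequences of 6 members are shown because they hold 1 of the 2 motifs, of 14 searched, whose share among members stood furthest above that among kept loci, as a ratio. The sequences are the 250 bases before the annotated gene start, 5′ to 3′ on the gene's strand, taken from the TAIR10.1 assembly with RefSeq gene models. Capitals mark CGCGTT, the core of the rapid stress response element, or its reverse complement, in LEA4-5 (chr5:2090431-2090680, minus strand), YUC5 (chr5:17650376-17650625, minus strand) and AT1G70130 (chr1:26411829-26412078, minus strand).
LEA4-5: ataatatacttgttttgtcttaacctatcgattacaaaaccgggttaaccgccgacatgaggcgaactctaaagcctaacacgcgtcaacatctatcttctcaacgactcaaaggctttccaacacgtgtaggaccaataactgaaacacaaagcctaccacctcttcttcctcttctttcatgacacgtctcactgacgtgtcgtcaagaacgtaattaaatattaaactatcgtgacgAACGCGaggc
YUC5: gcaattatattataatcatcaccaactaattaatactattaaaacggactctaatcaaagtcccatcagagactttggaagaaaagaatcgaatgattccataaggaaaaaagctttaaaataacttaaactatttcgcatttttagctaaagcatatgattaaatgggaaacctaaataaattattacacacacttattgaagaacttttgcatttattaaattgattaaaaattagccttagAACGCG
AT1G70130: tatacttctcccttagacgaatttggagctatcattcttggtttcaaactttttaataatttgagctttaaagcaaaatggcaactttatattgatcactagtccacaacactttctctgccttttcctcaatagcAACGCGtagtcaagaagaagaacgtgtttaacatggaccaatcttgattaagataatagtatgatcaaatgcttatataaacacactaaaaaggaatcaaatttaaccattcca
The 6 capital bases began 10 bases before the gene start in LEA4-5, 6 in YUC5 and 114 in AT1G70130. LEA4-5 encodes a late embryogenesis abundant protein, YUC5 a flavin monooxygenase of auxin synthesis, and AT1G70130 a lectin receptor-like kinase.

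Capitals mark AAATATCT, a short form of the evening element (AAAATATCT) known from clock-controlled genes, in AOC2 (chr3:9406419-9406668, plus strand), FAMT (chr3:16379321-16379570, plus strand) and MAN1 (chr1:460832-461081, minus strand). The search for the short form also counts sites that lack the first A. In FAMT and MAN1 the base before the capitals is an a, and in AOC2 it is a c, so AOC2 lacks the full element at this site.
AOC2: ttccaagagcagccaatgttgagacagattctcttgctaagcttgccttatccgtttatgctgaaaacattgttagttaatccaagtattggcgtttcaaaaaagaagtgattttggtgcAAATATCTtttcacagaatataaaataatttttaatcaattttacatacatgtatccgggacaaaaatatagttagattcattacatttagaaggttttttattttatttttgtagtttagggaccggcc
FAMT: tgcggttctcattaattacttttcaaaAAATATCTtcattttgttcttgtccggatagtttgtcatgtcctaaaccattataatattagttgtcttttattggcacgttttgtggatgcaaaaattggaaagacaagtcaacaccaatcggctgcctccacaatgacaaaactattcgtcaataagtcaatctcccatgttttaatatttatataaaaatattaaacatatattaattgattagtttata
MAN1: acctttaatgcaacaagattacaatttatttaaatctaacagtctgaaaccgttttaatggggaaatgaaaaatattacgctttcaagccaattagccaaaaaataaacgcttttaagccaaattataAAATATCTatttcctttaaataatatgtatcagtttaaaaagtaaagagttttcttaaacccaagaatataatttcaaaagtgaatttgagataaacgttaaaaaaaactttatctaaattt
AOC2 encodes an allene oxide cyclase of jasmonate synthesis, FAMT a farnesoic acid methyltransferase, and MAN1 a mannan-degrading glycosyl hydrolase. The capitals began 130 bases before the gene start in AOC2, 223 in FAMT and 122 in MAN1. The shares of promoters with each motif are given after the expression values.

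The members were mostly genes of modest level and modest change. Their mean control level ran from 1.94 to 374 CPM with a median of 15.5 CPM, against a median of 21.2 CPM over the 17491 kept loci. The median log2 ratio at 1 h was 0.53, against 0.01 over kept loci, and 4 members reached 1. At 4 h the median log2 ratio was -0.66, against -0.05 over kept loci, and 34 members lay at -1 or below. For 100 members the log2 ratio at 4 h was larger in size than that at 1 h. These ratios chose the members, and the threshold at 4 h was the larger in size. By edgeR, 5.03% of all loci tested were higher at 1 h and 25.6% were lower at 4 h. Whether the larger change at 4 h is particular to the members was not tested. In bulk root tips, fewer cells of a type and less RNA per cell cannot be told apart, at any of these times.

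Each criterion took part in reaching 134. Of the kept loci, 1500 met the ratio at 1 h, 277 of these also met the ratio at 4 h, 152 of those had no overlap with control at 1 h, and 134 had none at 4 h either. Among kept loci, 15.0% had all DEX 1 h libraries above all control libraries and 36.1% had all DEX 4 h libraries below them. With every sign turned round (below control at 1 h, above it at 4 h), the same criteria found 40 loci. A further 25 loci met every criterion other than the 2 CPM mean.

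**Figure D1:**
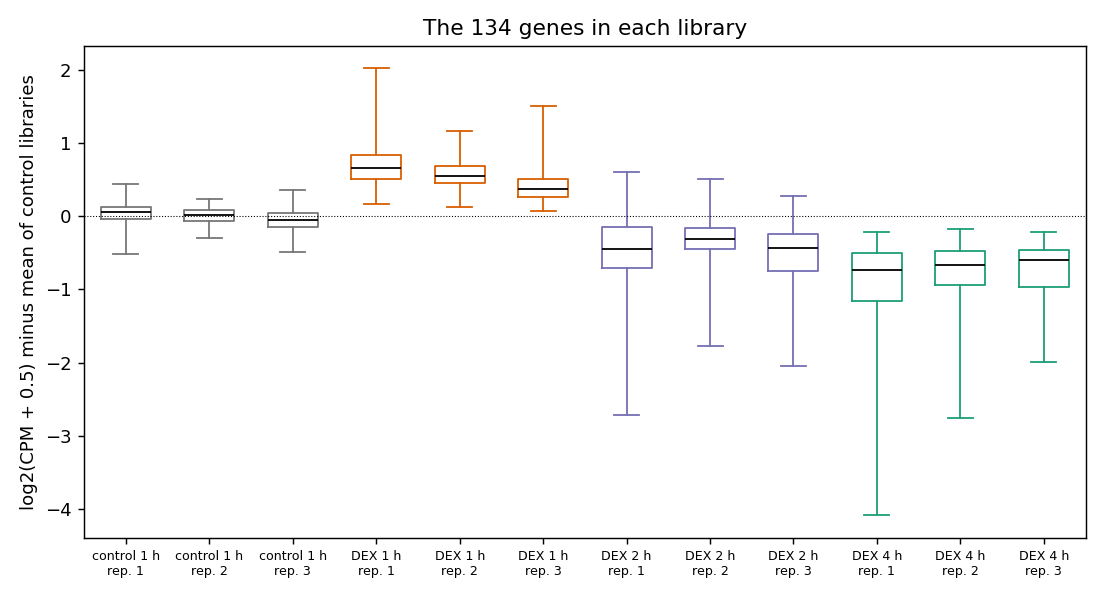
Log2(CPM + 0.5) minus the mean of log2(CPM + 0.5) over the control libraries (vertical axis) for the 134 genes in each of 12 libraries (horizontal axis). Boxes span the quartiles with the median as a line, and whiskers reach the lowest and highest gene. Medians are near 0 in control, between 0.38 and 0.66 at 1 h, between -0.44 and -0.31 at 2 h and between -0.73 and -0.60 at 4 h.

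Values here are log2(CPM + 0.5) minus the mean of log2(CPM + 0.5) over the control libraries. The median over the 134 genes was 0.06, 0.02 and -0.05 in control repeats 1 to 3 and 0.66, 0.54 and 0.38 in DEX 1 h repeats 1 to 3. It was -0.44, -0.31 and -0.44 at 2 h and -0.73, -0.66 and -0.60 at 4 h. Over the kept loci, library medians stayed between -0.08 and 0.05. The 1 h libraries thus spread over a wider range than those of the other groups, with repeat 3 nearest to control. The members' medians at 2 h all lay below control and above those at 4 h.

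At 2 h, 56 of 134 members (41.8%) fell against control and 2 (1.49%) rose, by the quasi-likelihood test of edgeR with p-values adjusted by Benjamini-Hochberg and a threshold of 0.05. Over all 19733 loci tested, 18.5% fell and 16.5% rose. The median log2 fold change of the members at 2 h was -0.38, against -0.01 over all loci, and the quartiles of the members were -0.62 and -0.18. A log2 fold change below 0 was seen in 124 members and in 50.7% of all loci. All 3 DEX 2 h libraries lay below all 3 control libraries in 90 members (67.2%), against 33.1% of kept loci, and above them in 2, against 22.5% of kept loci. The control libraries of this comparison are those that helped to choose the members.

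**Figure D2:**
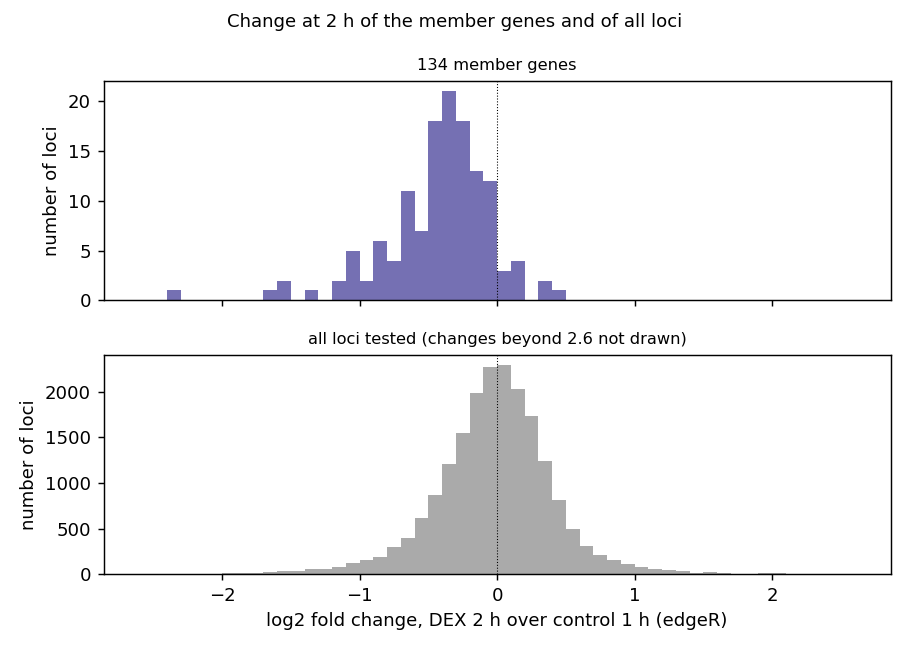
Histograms of the edgeR log2 fold change of DEX 2 h over control (horizontal axis) against the number of loci per bin (vertical axis), for the 134 members above and all loci tested below. The members centre on -0.38 and range from -2.31 to 0.49, and all loci centre on -0.01.

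The mean at 2 h lay between the means of control and DEX 4 h in 116 members. It was above the DEX 4 h mean in 123 members and at or below it in 11. It was below the control mean in 127. The control and DEX 4 h means helped to choose the members, so these counts are a description. Shares beside kept loci are given below for held-out libraries. The mean at 2 h was thus below control in most members, while 76 of the 134 passed no test at 2 h.

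To read the pattern in libraries that had no part in the choice, the rule was applied again with each library held out. For a held-out DEX library, the control libraries beside it still helped to choose the genes, so its shares are a description. With DEX 1 h repeat 1 held out, 119 genes met the rule and the held-out library exceeded all controls in 108 of them (90.8%), against 42.4% of kept loci. With repeat 2 held out the count was 123 of 134 (91.8%), against 35.3% of kept loci. With repeat 3 held out, 337 genes met the rule, and repeat 3 exceeded all controls in 146 of them (43.3%), against 30.5% of kept loci. How many genes lay above control at 1 h therefore depended on whether repeat 3 was counted.

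Held-out libraries at 4 h lay below all controls in 128 of 134 genes (95.5%, against 49.1% of kept loci) for repeat 1, in 132 of 137 (96.4%, against 45.5%) for repeat 2 and in 133 of 157 (84.7%, against 44.6%) for repeat 3. The mean at 2 h lay below the held-out 4 h library in 13.4%, 12.4% and 31.8% of these genes, in that order. Over kept loci the shares were 44.5%, 48.4% and 52.7%. When a control library was held out, all 3 DEX 2 h libraries lay below it in 132 of 156 genes (84.6%, against 45.3% of kept loci) for repeat 1, in 131 of 159 (82.4%, against 43.7%) for repeat 2 and in 111 of 157 (70.7%, against 44.2%) for repeat 3. Of these genes, 109, 124 and 113 in that order were among the 134 members. The mean at 2 h lay below the held-out control in 93.6%, 92.5% and 89.8% of these genes. Over kept loci the shares were 56.1%, 54.6% and 56.6%. The low level at 2 h of the genes so chosen was thus also seen against a control that had not chosen them. The remaining controls and the DEX 4 h libraries still took part in that choice.

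The members are described next by role, with the roles assigned by hand from RefSeq symbols and products: 13 transcription factors, 12 genes of hormone synthesis or signalling, 11 transporters, 10 kinases, 7 cell wall genes and 81 others. At 2 h, 6 transcription factors, 5 hormone genes, 5 transporters, 5 kinases and 3 cell wall genes fell, with median log2 fold changes of -0.39, -0.47, -0.45, -0.39 and -0.44 in that order. Of the 81 others, 32 fell and 2 rose, with a median of -0.33. Over all members 41.8% fell, and over all loci tested 18.5%. Roles were not tested against each other.

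Among transcription factors, HB-7, a homeodomain leucine zipper gene induced by abscisic acid and drought, had the highest log2 ratio at 1 h, 1.13. It had 9.27, 9.19 and 8.91 CPM in control, 28.3, 19.2 and 13.98 CPM at 1 h, 3.56, 2.30 and 2.61 CPM at 2 h and 2.69, 1.86 and 3.14 CPM at 4 h. Its controls were within 1 CPM of each other, its 1 h libraries were all higher and differed among themselves, and no library at 2 h or 4 h reached the lowest control. HB-7 fell at 2 h, with an edgeR log2 fold change of -1.64 ± 0.25 (SE; adjusted p = 0.000308). AT5G01380, listed as a homeodomain-like protein, had the lowest ratio of any member at 4 h, -2.44. It had 11.6, 11.0 and 8.78 CPM in control, 13.2, 15.2 and 12.4 CPM at 1 h, 1.17, 2.81 and 2.15 CPM at 2 h and 1.20, 1.11 and 2.26 CPM at 4 h. Its 1 h libraries lay just above control and its 2 h and 4 h libraries far below, so the later change was the larger. At 2 h it had the lowest value of all members, -2.31 ± 0.24 (SE; adjusted p = 9.5e-06) by edgeR.

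WRKY48, a stress-induced WRKY factor, had 10.2, 12.7 and 10.9 CPM in control, 19.7, 20.0 and 15.0 CPM at 1 h, 4.61, 6.08 and 4.82 CPM at 2 h and 2.05, 3.096 and 4.24 CPM at 4 h. Its 3 DEX groups did not overlap control, and it fell at 2 h by edgeR, -1.07 ± 0.18 (SE; adjusted p = 0.000321). RAP2.6, an ERF-family factor of the abscisic acid and jasmonate responses, had 62.9, 66.5 and 72.9 CPM in control, 84.0, 94.4 and 88.2 CPM at 1 h, 33.1, 42.4 and 29.5 CPM at 2 h and 15.6, 13.4 and 19.3 CPM at 4 h. Its levels at 2 h were under every control and those at 4 h under every 2 h library; the edgeR log2 fold change at 2 h was -0.89 ± 0.13 (SE; adjusted p = 0.000268). MYB15, a MYB factor known from cold and defence responses, had 20.1, 23.3 and 25.98 CPM in control, 26.2, 32.4 and 35.5 CPM at 1 h, 16.1, 25.2 and 18.6 CPM at 2 h and 4.53, 14.6 and 17.8 CPM at 4 h. Repeat 1 at 4 h stood well under repeats 2 and 3, the 2 h libraries overlapped control, and MYB15 passed no test at 2 h (-0.16, adjusted p = 0.77).

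WRKY23, an auxin-inducible WRKY factor of roots, had 5.88, 4.06 and 4.08 CPM in control, 11.6, 6.62 and 6.76 CPM at 1 h, 2.39, 3.71 and 2.54 CPM at 2 h and 1.91, 2.72 and 2.73 CPM at 4 h. The 2 h libraries were all under control, but the edgeR value, -0.65 ± 0.25 (SE; adjusted p = 0.0546), did not pass. Without DEX 2 h repeat 2 it did (-0.87, adjusted p = 0.0297). AT4G16750 (ERF type) and TCP9 were the members nearest to the threshold at 4 h, with log2 ratios of -0.41 and -0.41, and neither passed at 2 h. Of the other 5 factors, which the naming rule did not reach, WRKY22 (-0.39, adjusted p = 0.0444) and KNAT7 (-0.39, adjusted p = 0.0196) fell at 2 h by edgeR. KNAT7 is a homeobox regulator of secondary wall formation. WRKY25 (-0.39), UNE12 (-0.17) and AT4G29100 (-0.03) passed no test there.

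**Figure D3:**
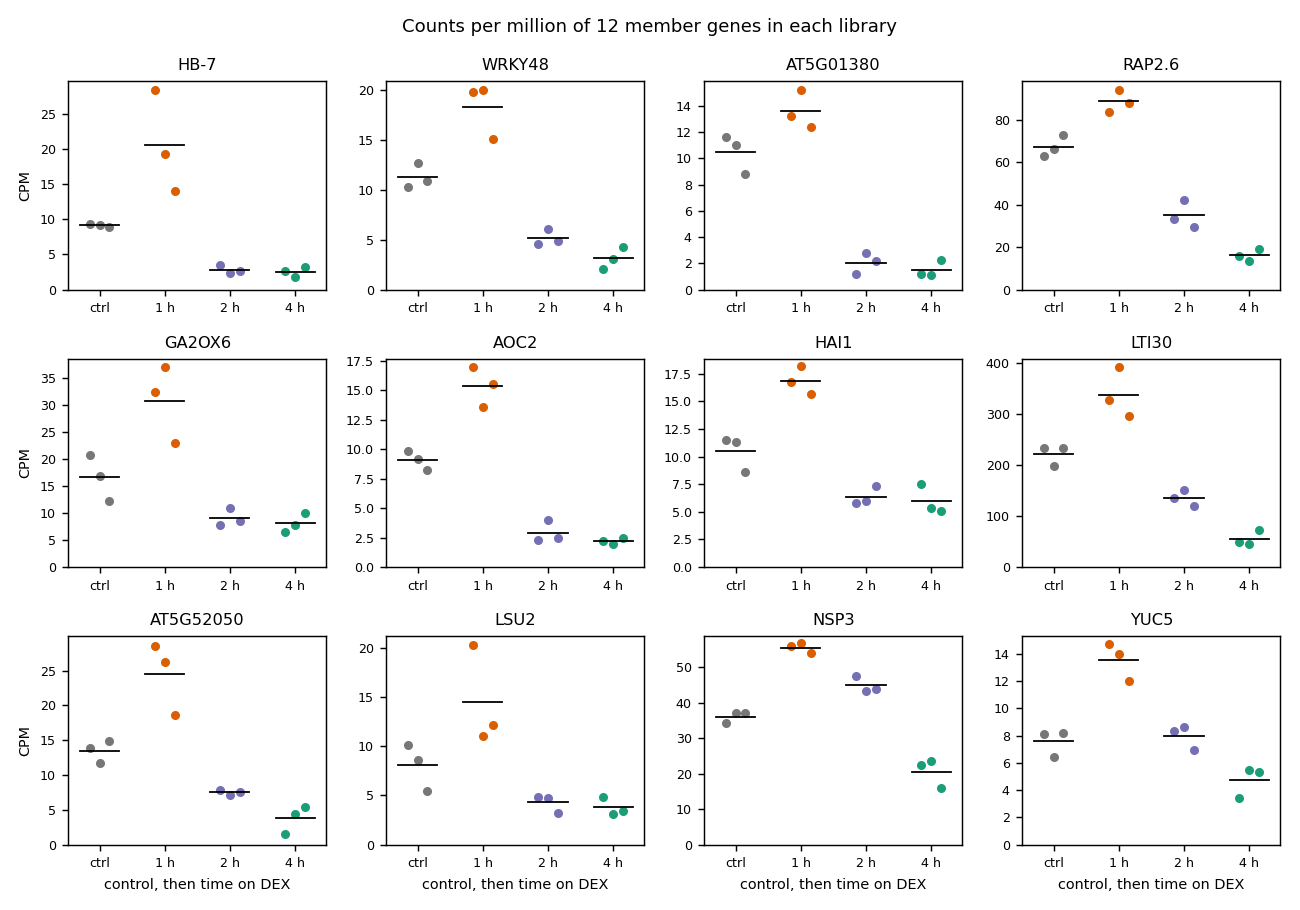
CPM (vertical axis, from 0) of 12 members in each library, with control at left and then 1 h, 2 h and 4 h on DEX (horizontal axis), points for libraries in the order of repeats 1 to 3 and a line for the group mean. Every panel has its 1 h points above and its 4 h points below control. NSP3 stays above control at 2 h and YUC5 overlaps it, while HB-7 and AOC2 are already near their 4 h level.

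Hormone genes of 4 pathways were among the members. GA2OX6, a gibberellin 2-oxidase that inactivates gibberellins, had 20.8, 16.8 and 12.2 CPM in control, 32.3, 37.0 and 23.0 CPM at 1 h, 7.80, 10.9 and 8.54 CPM at 2 h and 6.58, 7.86 and 10.05 CPM at 4 h. Control repeat 1 was the highest control and came close to DEX 1 h repeat 3, and the 2 h libraries were all under the lowest control. GA2OX6 fell at 2 h by edgeR, -0.82 ± 0.23 (SE; adjusted p = 0.0158). The call was lost without DEX 2 h repeat 1 (-0.72, adjusted p = 0.0614), without DEX 2 h repeat 3 (-0.77, adjusted p = 0.059) and without control repeat 1 (-0.63, adjusted p = 0.0557).

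Jasmonate synthesis and breakdown were both represented. AOC2 had 9.81, 9.19 and 8.23 CPM in control, 16.9, 13.6 and 15.5 CPM at 1 h, 2.27, 4.03 and 2.48 CPM at 2 h and 2.19, 1.98 and 2.46 CPM at 4 h. No group overlapped control, and the edgeR log2 fold change at 2 h was -1.58 ± 0.18 (SE; adjusted p = 1.09e-05). AOC2 has close paralogs and some of its deposited counts are fractional, so reads may be shared between them. CYP94B3, a P450 that oxidises and thereby inactivates jasmonoyl-isoleucine, had 15.8, 17.3 and 13.4 CPM in control, 23.601, 25.5 and 18.6 CPM at 1 h, 5.77, 8.19 and 7.30 CPM at 2 h and 7.99, 6.69 and 9.50 CPM at 4 h. Its 2 h libraries were under control and overlapped the 4 h libraries, and it fell at 2 h by edgeR, -1.08 ± 0.15 (SE; adjusted p = 0.000109).

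The clade A phosphatases HAI1 and ABI1 restrain abscisic acid signalling. HAI1 had 11.5, 11.3 and 8.60 CPM in control, 16.8, 18.205 and 15.6 CPM at 1 h, 5.83, 5.95 and 7.37 CPM at 2 h and 7.50, 5.39 and 5.06 CPM at 4 h, and fell at 2 h by edgeR, -0.67 ± 0.16 (SE; adjusted p = 0.00398). ABI1 had 65.9, 61.8 and 53.1 CPM in control, 96.9, 89.6 and 68.1 CPM at 1 h, 49.7, 50.5 and 49.9 CPM at 2 h and 40.9, 36.5 and 42.4 CPM at 4 h. All 2 h libraries of ABI1 were under its controls, yet the change, -0.22 ± 0.10 (SE; adjusted p = 0.106), did not pass. Without control repeat 3 it did, at -0.30 (edgeR adjusted p = 0.0367). AIRP1, a ubiquitin ligase of abscisic acid signalling that the naming rule did not reach, fell at 2 h (-0.64, adjusted p = 0.0254).

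The auxin synthesis and response genes among the members passed no test at 2 h. YUC5 had 8.14, 6.45 and 8.16 CPM in control, 14.7, 13.98 and 12.003 CPM at 1 h, 8.35, 8.64 and 6.97 CPM at 2 h and 3.39, 5.45 and 5.33 CPM at 4 h. Its 2 h and control libraries overlapped, with an edgeR log2 fold change of 0.13 ± 0.15 (SE; adjusted p = 0.554). AT1G16510, a SAUR-family auxin-responsive gene, had 2.50, 1.79 and 2.35 CPM in control, 6.56, 4.22 and 4.02 CPM at 1 h, 2.64, 1.85 and 1.69 CPM at 2 h and 1.48, 1.30 and 0.957 CPM at 4 h. Its value at 2 h, -0.05 ± 0.26 (SE; adjusted p = 0.911), did not pass and changed sign without some libraries. The auxin response genes IAA18, ATAUX2-11 and AT5G35735 had -0.25, 0.10 and -0.36 at 2 h. The auxin genes were not tested against the other members.

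Transporter members served efflux, ion exchange and mitochondrial exchange. AT5G52050, a MATE-family efflux carrier, had 13.8, 11.8 and 14.9 CPM in control, 28.6, 26.3 and 18.6 CPM at 1 h, 7.86, 7.16 and 7.63 CPM at 2 h and 1.48, 4.33 and 5.47 CPM at 4 h. Its 2 h libraries lay close together and under control, and it fell by edgeR, -0.79 ± 0.26 (SE; adjusted p = 0.036). This call was lost when any single library of DEX 2 h or control was left out, with adjusted p from 0.0534 to 0.107. OCT6, an organic cation carrier, had 26.3, 26.6 and 26.8 CPM in control, 42.9, 39.9 and 30.1 CPM at 1 h, 14.6, 17.0 and 17.3 CPM at 2 h and 8.77, 9.66 and 8.27 CPM at 4 h. Its controls were within 1 CPM of each other, DEX 1 h repeat 3 came nearest to them, and the gene fell at 2 h by edgeR, -0.66 ± 0.11 (SE; adjusted p = 0.000264).

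UCP5, a mitochondrial dicarboxylate carrier, had 77.3, 75.8 and 64.4 CPM in control, 93.5, 97.1 and 89.5 CPM at 1 h, 44.8, 42.7 and 48.6 CPM at 2 h and 32.1, 45.5 and 33.5 CPM at 4 h. Its 2 h libraries were all under control and it fell by edgeR, -0.63 ± 0.11 (SE; adjusted p = 0.000537). The sodium/calcium exchanger AT5G17850 (-0.62, adjusted p = 0.0555), the auxin carrier ABCB21 (-0.15, adjusted p = 0.74) and the major facilitator AT1G18940 (-0.45, adjusted p = 0.227) passed no edgeR test at 2 h. AT5G17850 passed without DEX 2 h repeat 2 (-0.79, adjusted p = 0.0434) and with DESeq2 (adjusted p = 0.0411). PIN3, an auxin efflux carrier that the naming rule did not reach, had a log2 ratio of 0.43 at 1 h and -0.42 at 4 h, with -0.07 at 2 h (adjusted p = 0.514).

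Of the kinases, LRR XI-23, a leucine-rich repeat receptor-like kinase, had 275, 265 and 248 CPM in control, 427, 385 and 301 CPM at 1 h, 225, 236 and 197 CPM at 2 h and 156, 169 and 170.4 CPM at 4 h. Its 2 h libraries were under control, with an edgeR log2 fold change of -0.21 ± 0.094 (SE; adjusted p = 0.0995) that did not pass. AT2G25790, of the same kinase class, had 24.4, 23.0 and 21.3 CPM in control, 51.2, 43.7 and 27.5 CPM at 1 h, 17.3, 16.8 and 14.6 CPM at 2 h and 13.6, 12.01 and 12.1 CPM at 4 h. DEX 1 h repeat 3 was the nearest to control, and the 2 h value, -0.44 ± 0.17 (SE; adjusted p = 0.0551), did not pass. It passed with DESeq2 (adjusted p = 0.0305) and in an edgeR fit of DEX 2 h and control alone (adjusted p = 0.00224).

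PIP5K1, a lipid kinase that makes phosphatidylinositol bisphosphate, had 75.5, 71.5 and 65.9 CPM in control, 101, 93.2 and 79.1 CPM at 1 h, 51.3, 53.8 and 52.5 CPM at 2 h and 40.4, 40.8 and 42.0 CPM at 4 h. Its libraries spread most at 1 h, and it fell at 2 h by edgeR, -0.38 ± 0.073 (SE; adjusted p = 0.000955). ARSK1, a root kinase, fell at 2 h as well, -0.61 ± 0.13 (SE; adjusted p = 0.00201). AT1G70130 was near the 2 CPM floor, with 1.90, 3.52 and 3.65 CPM in control, 3.80, 5.59 and 5.19 CPM at 1 h, 1.17, 2.11 and 1.69 CPM at 2 h and 0.0707, 1.24 and 1.23 CPM at 4 h. Its 2 h libraries overlapped control, and neither AT1G70130 (-0.82, adjusted p = 0.161) nor AT5G25440 (-0.39, adjusted p = 0.0583) passed the edgeR test. AT1G70130 passed in the fit of DEX 2 h and control alone (adjusted p = 0.0441), and AT5G25440 with library totals (adjusted p = 0.0399) and without DEX 2 h repeat 2 (-0.56, adjusted p = 0.0165).

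The cell wall members included enzymes of pectin and mannan and structural proteins. AT4G18280, a glycine-rich wall protein, had 23.4, 17.0 and 18.7 CPM in control, 34.4, 34.3 and 29.2 CPM at 1 h, 10.7, 10.4 and 8.995 CPM at 2 h and 4.38, 5.14 and 5.40 CPM at 4 h. The 4 groups did not overlap each other, and it fell at 2 h by edgeR, -0.92 ± 0.12 (SE; adjusted p = 3.74e-05). MAN1 had 8.68, 8.30 and 6.74 CPM in control, 13.8, 12.3 and 11.3 CPM at 1 h, 3.93, 4.03 and 3.39 CPM at 2 h and 3.82, 2.91 and 4.17 CPM at 4 h. Its libraries at 2 h overlapped those at 4 h, and it fell at 2 h by edgeR, -1.01 ± 0.15 (SE; adjusted p = 0.000153). AT3G13650, a dirigent-like protein, had 78.8, 85.5 and 70.9 CPM in control, 153, 135 and 136 CPM at 1 h, 61.2, 76.1 and 51.5 CPM at 2 h and 51.9, 45.1 and 47.2 CPM at 4 h. Repeat 2 at 2 h overlapped control and the change there, -0.27 ± 0.12 (SE; adjusted p = 0.0968), did not pass. It passed without that library (-0.43, edgeR adjusted p = 0.00756) and with library totals (-0.32, adjusted p = 0.049).

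The pectin methylesterase ATPMEPCRB (-0.36, adjusted p = 0.264), the pectin methylesterase inhibitor family member AT5G62350 (-0.26, adjusted p = 0.186) and the epimerase UGE3 (-0.44, adjusted p = 0.143), which interconverts UDP-glucose and UDP-galactose, passed no edgeR test at 2 h. AT5G62350 had 87.9, 71.8 and 110.5 CPM in control, 138, 139 and 135 CPM at 1 h, 68.0, 83.9 and 65.5 CPM at 2 h and 46.5, 45.3 and 58.9 CPM at 4 h. Its 3 libraries at 1 h were close to each other and its controls were not. UGE3 passed without control repeat 1 (-0.65, edgeR adjusted p = 0.0352) and AT5G62350 without control repeat 2 (-0.40, adjusted p = 0.035). EP3, a chitinase that the naming rule did not reach, fell at 2 h (-0.46, adjusted p = 0.0407).

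Protective and specialised-metabolism genes were found among the other members. The dehydrin LTI30, a cold- and drought-induced protein that shields membranes, had 235, 199 and 234 CPM in control, 328, 392 and 296 CPM at 1 h, 136, 151 and 119 CPM at 2 h and 49.6, 44.8 and 72.9 CPM at 4 h. Its groups did not overlap each other, its mean at 4 h was 25.05% of the control mean, and it fell at 2 h by edgeR, -0.67 ± 0.16 (SE; adjusted p = 0.00794). LEA4-5 had 4.40, 6.33 and 5.94 CPM in control, 7.71, 12.3 and 16.6 CPM at 1 h, 2.89, 3.01 and 3.26 CPM at 2 h and 1.34, 0.433 and 1.23 CPM at 4 h. Here DEX 1 h repeat 3 was the highest and not the lowest library, and the 2 h value, -0.81 ± 0.32 (SE; adjusted p = 0.067), did not pass although all its 2 h libraries were under control. It passed with library totals (adjusted p = 0.039) and with DESeq2 (adjusted p = 0.0264).

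CYP82C4, a P450 of coumarin synthesis under iron shortage, had the highest ratio of any member at 1 h, 1.20. It had 5.29, 7.34 and 7.10 CPM in control, 28.0, 11.0 and 8.38 CPM at 1 h, 7.91, 5.37 and 2.33 CPM at 2 h and 2.12, 0.743 and 1.44 CPM at 4 h. This ratio rested mainly on DEX 1 h repeat 1, and the 2 h libraries overlapped control (-0.28 ± 0.56 (SE; adjusted p = 0.74)). PAD3, the P450 of the last step of camalexin synthesis, had 18.25, 19.6 and 20.8 CPM in control, 54.2, 36.9 and 25.4 CPM at 1 h, 15.6, 14.4 and 10.8 CPM at 2 h and 11.8, 13.3 and 8.61 CPM at 4 h. Repeat 1 was the highest and repeat 3 the lowest of its 1 h libraries, and the 2 h value was -0.47 ± 0.26 (SE; adjusted p = 0.187).

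MSRB8, a methionine sulfoxide reductase, had 28.3, 25.7 and 20.5 CPM in control, 38.7, 29.6 and 29.8 CPM at 1 h, 6.84, 7.71 and 10.1 CPM at 2 h and 5.30, 8.06 and 8.69 CPM at 4 h, and fell at 2 h by edgeR, -1.55 ± 0.18 (SE; adjusted p = 3.57e-05). LSU2, a gene of the sulfur-shortage response, had 10.2, 8.60 and 5.44 CPM in control, 20.3, 11.1 and 12.2 CPM at 1 h, 4.85, 4.73 and 3.26 CPM at 2 h and 4.81, 3.16 and 3.42 CPM at 4 h. Its controls spread widely and stayed above every 2 h library. It fell at 2 h by edgeR, -0.86 ± 0.29 (SE; adjusted p = 0.0364), a call lost without any 1 of DEX 2 h repeats 1 to 3 and control repeats 1 and 2 (adjusted p from 0.0587 to 0.129). EHB1 (-0.41), AT3G48450 (-0.54), AT2G46940 (-0.37) and TPPJ (-0.27), a trehalose-6-phosphate phosphatase, passed no test at 2 h. In the fit of DEX 2 h and control alone, 74 of the 134 members fell, while 21.1% of all loci in that fit fell. WRKY23, AT5G17850, ABI1, LRR XI-23, LEA4-5, PAD3, EHB1, AT3G48450 and TPPJ were among these members.

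The 2 members that rose at 2 h were NSP3, a nitrile specifier protein of glucosinolate breakdown, and CYP706A1, a cytochrome P450. NSP3 had 34.4, 37.0 and 37.0 CPM in control, 56.0, 56.8 and 54.0 CPM at 1 h, 47.4, 43.3 and 44.0 CPM at 2 h and 22.4, 23.5 and 15.9 CPM at 4 h. Its level at 2 h lay between control and 1 h in every library, with an edgeR log2 fold change of 0.37 ± 0.10 (SE; adjusted p = 0.013). It was not called without DEX 2 h repeat 1 (0.32, adjusted p = 0.0548) or without control repeat 1 (0.33, adjusted p = 0.055). CYP706A1 had 7.22, 8.07 and 7.52 CPM in control, 10.9, 11.4 and 9.26 CPM at 1 h, 11.8, 10.7 and 8.33 CPM at 2 h and 3.03, 6.07 and 5.69 CPM at 4 h. Its 1 h and 2 h libraries overlapped each other and stood above control, with 0.49 ± 0.18 (SE; adjusted p = 0.0432) at 2 h by edgeR. This call was lost without DEX 2 h repeat 1 or 2 and without any 1 control library (adjusted p from 0.0733 to 0.168), and with library totals in place of scaling factors (0.44, adjusted p = 0.0817). Both genes had deposited counts that were not whole.

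The members nearest to the thresholds differed little from loci left out. At 1 h, AT5G21105, listed as an ascorbate oxidase, and AT1G22885 were just inside with log2 ratios of 0.3508 and 0.3523, and ST4C (0.3490) and IAA13 (0.3483) were just outside. At 4 h, MGT7 (-0.3956) and GSL11 (-0.3956) were just outside. By mean level, AT1G18940 (2.04 CPM) and AT1G35625 (2.04 CPM) were inside and LOG1 (1.91 CPM) and AT2G47950 (1.88 CPM) outside.

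Lists of 193 genes in 14 pathways held 5 members: ABI1 and HAI1, LTI30, AOC2 and GA2OX6. The 14 lists together gave 12 genes called higher and 15 called lower at 1 h by edgeR, where 5.03% of all loci were higher and 4.59% lower. They gave 26 higher and 46 lower at 2 h, where 16.5% of all loci were higher and 18.5% lower. At 4 h they gave 26 higher and 57 lower, where 24.7% of all loci were higher and 25.6% lower. The 5 members were chosen on their values at 1 h and 4 h, so nothing is read from their calls at those times. Without them the counts were 7 higher and 15 lower at 1 h and 26 higher and 52 lower at 4 h, and the accounts of their lists at 1 h and 4 h below leave them out. The 3 comparisons share their control libraries.

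Clade A PP2C phosphatases and genes of abscisic acid synthesis and breakdown had 11 tested genes, of which ABI1 and HAI1 are members. Of the other 9, none was higher and 1 lower at 1 h, the phosphatase HAI3 (-2.66, adjusted p = 0.000641), and 1 was higher and 4 lower at 4 h. Of all 11, 5 fell and none rose at 2 h, with a list median of -0.35. HAI3 fell at 2 h and 4 h too (-1.18 and -2.12), while AHG1 was the 1 that rose at 4 h (1.62, adjusted p = 0.0015). Both lay under the 2 CPM floor, with means over 12 libraries of 0.876 CPM for HAI3 and 0.571 CPM for AHG1.

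The cold and dehydration list had 12 tested genes, with LTI30 as its member. Of the other 11, 1 was higher at 1 h, and 1 was higher and 4 lower at 4 h. Of all 12, 1 rose and 4 fell at 2 h. RD29A, a classic drought and cold marker, had log2 fold changes of 0.58 at 1 h (adjusted p = 0.288), -0.91 at 2 h (adjusted p = 0.0448) and -3.01 at 4 h. The dehydrin ERD10 had 0.32 at 1 h (adjusted p = 0.074), -0.90 at 2 h and -1.49 at 4 h (adjusted p = 2.29e-05 at 2 h). Neither was a member. The jasmonate list had 17 tested genes, with AOC2 as its member, and 5 of the 17 fell at 2 h with none higher. Of the other 16, none was called at 1 h and 4 were lower at 4 h. JOX4, a jasmonate oxidase, had 0.65 at 1 h (adjusted p = 0.168), -2.36 at 2 h (adjusted p = 0.000511) and -4.23 at 4 h. The brassinosteroid and gibberellin list had 12 tested genes, with GA2OX6 as its member, and 2 of the 12 fell at 2 h. Of the other 11, 2 were lower at 1 h and 1 was higher at 4 h.

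The other 10 lists held no member. The 24 touch and wounding genes had 1 higher at 1 h, 6 higher and 1 lower at 2 h, and 3 higher and 1 lower at 4 h (1 higher and 1 lower with library totals). The 10 cytosolic heat shock genes had 4 lower at 1 h, 7 higher at 2 h and 8 higher at 4 h (8 higher and 1 lower with library totals), where the members lay above control at 1 h and below it later. Of 5 galactinol and raffinose synthases, 1 was higher at 1 h, 1 higher and 3 lower at 2 h, and 1 higher and 4 lower at 4 h. The 7 LOG cytokinin-activating enzymes had 1 higher and 2 lower at 1 h and 5 lower at 2 h and at 4 h. The 12 iron and phosphate starvation genes had none called at 1 h, 4 lower at 2 h, and 8 lower and 1 higher at 4 h. The median of this list was 0.30 at 1 h, -0.73 at 2 h and -1.54 after 4 h.

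The 9 type-A response regulators had 2 lower at 1 h, 3 lower at 2 h, and 2 higher and 1 lower at 4 h. The 12 early auxin response genes had 1 higher and 2 lower at 1 h, 1 higher and 6 lower at 2 h (0 higher with library totals), and 7 lower at 4 h. The 19 clock genes had 2 higher at 1 h, 3 higher and 3 lower at 2 h (3 and 5 with library totals), and 5 higher and 5 lower at 4 h. The 18 primary nitrate response genes had 2 lower at 1 h, 6 higher and 3 lower at 2 h (5 and 4 with library totals), and 3 higher and 5 lower at 4 h. The 10 energy starvation genes had none called at 1 h, 1 higher and 2 lower at 2 h (0 higher with library totals), and 4 lower at 4 h.

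Promoters of all 134 members were searched over 250 bases before and 50 bases after the gene start, on both strands, for 14 motifs, with the 17419 kept loci that had a promoter window beside them. CGCGTT stood in 12 members (8.96%, 95% exact interval 4.71% to 15.1%), against 3.77% of kept loci and 3.37% of all 38092 windows. In the 250 bases before the start alone it stood in 7 members (5.22%), against 2.78% of kept loci. AAATATCT stood in 15 members (11.2%, interval 6.40% to 17.8%), against 5.77% of kept loci, and before the start alone in 9.70%, against 4.82%. TGGGCC, the site II element of growth and ribosomal protein genes, stood in 10 members (7.46%, interval 3.64% to 13.3%), against 19.9% of kept loci. AAACCCTA, the telo-box of the same kind of gene, stood in 2 members (1.49%), against 5.69%. Intervals cover counting error only. The share of promoters was not tested.

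AAAAG, a form of the DOF site with an A before the AAAG core, was nearly universal and so told members little from other genes. It stood in 91.8% of members, against 87.3% of kept loci. Sites with another base before AAAG were not searched. The ABRE forms ACGTGTC (5.22% of members, against 4.97% of kept loci) and ACGTGGC (5.97%, against 4.68%), which bind factors of abscisic acid signalling and can overlap the G-box CACGTG (8.96%, against 8.80%), had shares near those of kept loci. The DRE core CCGAC had 17.9%, against 16.5%, and the W-box core TTGAC 53.0%, against 51.2%. The auxin response element TGTCTC had 15.7%, against 13.4%, GATAAG 12.7%, against 14.2%, and the phosphate motif GNATATNC 5.97%, against 6.10%. GCCGCC stood in no member (exact 95% interval up to 2.72%), against 2.66% of kept loci.

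**Figure D4:**
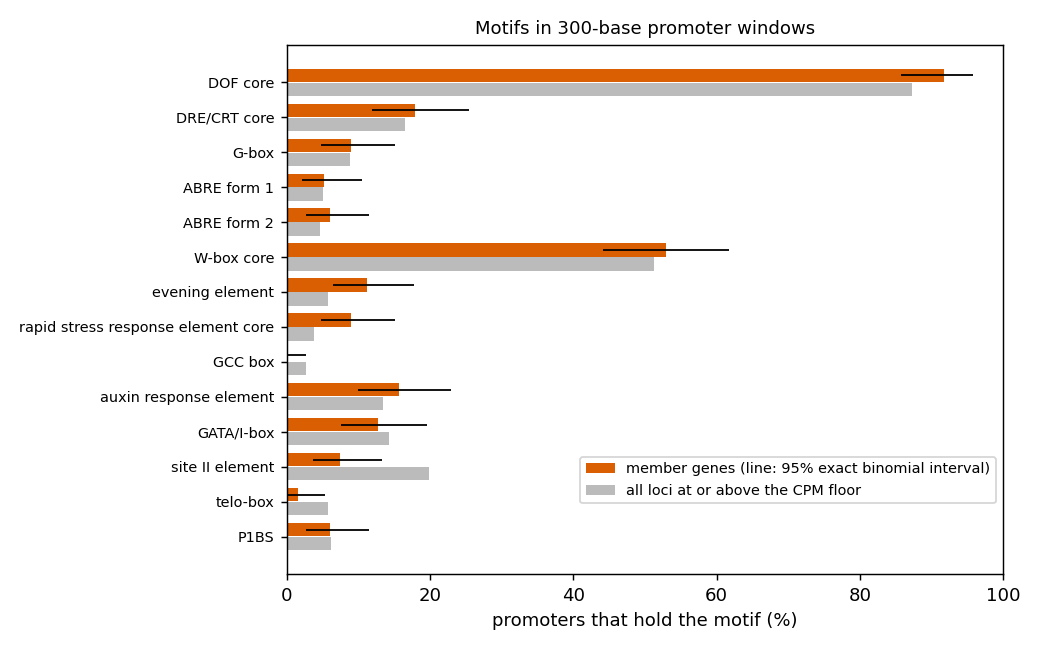
Share of promoter windows of 300 bases that hold each of 14 motifs (horizontal axis, percent, from 0), for the 134 members (upper bar of each pair, line for the exact 95% interval) and for all kept loci (lower bar). The rapid stress response core (8.96% against 3.77%) and the short form of the evening element (11.2% against 5.77%) are more frequent in members. The site II element (7.46% against 19.9%) and the telo-box (1.49% against 5.69%) are less frequent.

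Values at 2 h were compared between members with and without a motif as a description. The 12 with CGCGTT had a median log2 fold change of -0.39 and 5 of them fell, against -0.37 and 51 in the 122 without it. The 15 with AAATATCT had a median of -0.29 and 5 of them fell, against -0.38 and 51 in the 119 without it. The 10 with TGGGCC had a median of -0.36 and 2 of them fell, against -0.38 and 54 in the 124 without it. MAN1 and AT4G18070 held both CGCGTT and AAATATCT. Beside the rapid stress response core, LEA4-5 held a G-box, an ABRE and a DRE core in its window. LTI30 held the short form of the evening element, a DRE core and a site II element. No difference between members with and without a motif was tested.

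The members also had simpler gene models than kept loci. Their median number of exons was 3, against 5, and 33 (24.6%) had a single exon, against 14.3% of kept loci. Their median spliced length was 1657 bases, against 1777, and the median protein had 350 residues, against 399. GC content of transcripts was similar, with medians of 40.6% and 41.4%. Chromosomes 1 to 5 held 40, 21, 21, 20 and 32 members, and 1 pair stood side by side, the metacaspases MC7 and MC6. A gene on the opposite strand overlapped 23 members (17.2%, against 28.1% of kept loci), and since the counting strand is not stated, reads of these pairs may be mixed.

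Markers of the cell types a root tip can hold were summed as CPM in each library. Root meristem markers were present, with 97.6 to 106 CPM at 1 h, 97.6 to 102 CPM at 2 h and 90.6 to 101 CPM at 4 h, against 112 to 123 CPM in control. Phloem markers had 92.4 to 129 CPM at 1 h, 61.5 to 70.2 CPM at 2 h and 51.7 to 57.8 CPM at 4 h, against 89.4 to 94.6 CPM in control. The 2 h and 4 h phloem sums thus lay under control, as the members did, and 2 of 4 phloem markers fell at each of these times, among them the sucrose carrier SUC2 (-0.97 at 2 h, edgeR adjusted p = 0.000269). The phloem marker OPS was higher at 1 h (0.96, adjusted p = 4.58e-06) and at 2 h (0.28, adjusted p = 0.0368).

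Xylem markers had 193 to 254 CPM at 1 h, 151 to 173 CPM at 2 h and 151 to 157 CPM at 4 h, against 201 to 246 CPM in control, and 4 of 5 fell at 2 h and at 4 h. Calls of lower level were not limited to vascular markers: 4 of 4 root cap markers fell at 2 h and 1 at 4 h, and 3 of 5 root meristem markers fell at 2 h and at 4 h with 1 higher. Of the 5 root hair markers 2 fell at each of these times, and of the 5 endodermis markers 1 fell at each, with 1 higher at 2 h. No shoot marker was called. At 1 h, 2 root cap, 2 root meristem, 1 endodermis and 1 root hair marker were lower, and OPS alone was higher. Over all loci, 4.59% were lower at 1 h, 18.5% at 2 h and 25.6% at 4 h. Root cap markers had 47.9 to 54.2 CPM at 1 h, 43.0 to 51.1 CPM at 2 h and 60.4 to 62.6 CPM at 4 h, against 62.2 to 71.0 CPM in control. Root hair markers had 279 to 316 CPM at 1 h, 211 to 245 CPM at 2 h and 227 to 316 CPM at 4 h, against 272 to 331 CPM in control. Endodermis markers had 287 to 315 CPM at 1 h, 233 to 280 CPM at 2 h and 272 to 295 CPM at 4 h, against 284 to 324 CPM in control. Markers of green shoot tissue stayed between 1.92 and 4.72 CPM in every library, with 3 of 5 under 0.5 CPM throughout. None of these markers was a member, and the part of cell composition in the members' course was not tested.

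**Figure D5:**
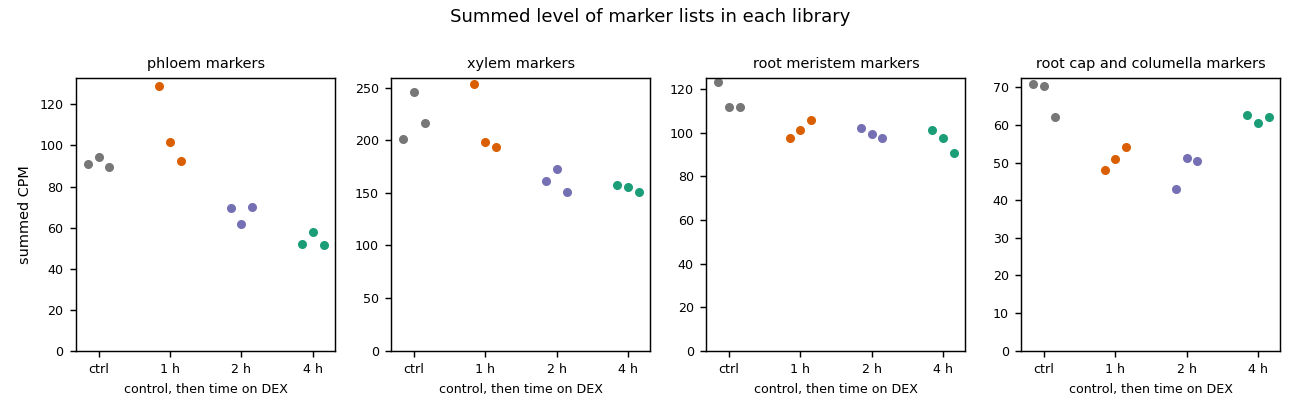
Summed CPM (vertical axis, from 0) of 4 marker lists in each library, with control at left and then 1 h, 2 h and 4 h on DEX (horizontal axis). Phloem and xylem sums lie under control at 2 h and 4 h, with DEX 1 h repeat 1 the highest of the 1 h libraries in both.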

How the data were processed

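RNA-seq of 12 root meristem libraries was analysed, 3 in each of 4 groups taken from the sample labels. The deposited files hold the authors' expected counts, that is, read counts estimated for each locus, some of them fractional, with no header. The submitters' processing notes name CASAVA, GSNAP, HTSeq, edgeR and the build TAIR10. What each did, the annotation and the strand setting are not given in the sources used here. Libraries were TruSeq Stranded mRNA, per the labels' protocols. The files carry no coordinates. Names, gene models and sequences came from the RefSeq annotation of TAIR10.1, matched by locus tag for all 134 members and 28009 of 28775 loci.

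Counts were rounded and tested with edgeR 4.0.16 in R 4.3.3: filterByExpr (minimum count 10, minimum total 15) left 19733 loci, TMM factors scaled libraries, and 1 quasi-likelihood model with group as its term was fitted to all 12 libraries. Benjamini-Hochberg adjustment ran over all loci tested, with calls at 0.05. The SE of a log2 fold change is its size divided by the square root of the F statistic. The biological coefficient of variation was 8.80%. The test was checked on simulated counts.

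The members, the 14 lists, the marker lists and the naming rule were chosen with earlier results of these data known, and roles were assigned after values were seen. Members were named when they were among the 14 with the largest smaller change of the 1 h and 4 h ratios, in a list, among the 4 highest or 4 lowest called at 2 h, nearest to a threshold, or among the first 6 of a role by the gap between the ratios; 48 were. Repeat numbers are shared by the groups, but correlations of same-numbered deviations ran from -0.12 to 0.17 with 5 of 18 above 0.1, so they were not taken to pair libraries. Other settings, a block by repeat number, each library left out and DESeq2 1.42.0 were tried. The rule with each library held out, and members with whole counts only, were added after the data were seen. P-values measure the spread between these libraries.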

Additional observations from a re-analysis of the deposited data

Results flagged for a closer look

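GolS4, a galactinol synthase of the raffinose pathway, met every criterion other than the mean of 2 CPM, with a mean of 0.443 CPM over 12 libraries. It had 0.238, 0.716 and 0.247 CPM in control, 1.09, 1.83 and 0.874 CPM at 1 h, 0.123, 0.128 and 0 CPM at 2 h and 0, 0 and 0.0683 CPM at 4 h. The 1 h libraries were all above control and those at 2 h and 4 h all below. Its changes at 4 h and at 1 h differed by -5.33 on edgeR's log2 scale, but the values that give this difference are those that single the gene out, so it is a description and was not tested. With 1 count at 4 h, against 66 at 1 h, the fitted size depends on edgeR's prior count. By counts per library total, the 4 h level was 1.76% of the 1 h level (exact 95% interval 0.0438% to 10.1%, counting error only). GolS4 is in a list chosen with earlier results of these data known.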

How the results depend on the processing

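The number of members followed the thresholds and the libraries. It was 277 with overlap between libraries allowed, 61 with log2 ratios of at least 0.5 and at most -0.5, and 3 with ratios of at least 1 and at most -1. Leaving out 1 library gave 119 to 337, the highest without DEX 1 h repeat 3. TMM or DESeq2 scaling gave 106, of which 98 were among the 134. The count that fell at 2 h was 56, beside 18.5% of all loci. It was 36 to 51 with 1 library left out, beside 14.04% to 16.78% of all loci in those fits. It was 58 with DESeq2, beside 17.06%, and 162 of 337 for members chosen with DEX 1 h repeat 3 held out. The count that rose was 2, beside 16.5% of all loci. It was 1 with library totals, beside 13.3%, and 0 to 3 with 1 library left out, beside 11.6% to 14.2%. The members' median at 2 h was -0.44 to -0.32 with 1 library left out. With the repeat number as a block, 61 fell, 2 rose and the median was -0.38. Over all loci in that fit, 18.8% fell and 16.9% rose. With this block AT5G52050 lost its call, and AT1G70130, AT2G25790, AT5G25440, LEA4-5 and TPPJ gained one. The lists' count higher at 1 h (12) was 7 without the members. The DOF site form AAAAG stood in 83.6% of members, against 81.5% of kept loci, when the 50 bases after the start were left out.

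Of 576 recomputed values at 2 h of the 48 named members, 517 kept their direction and side of the threshold. With 1 library left out, 5 values of 3 genes changed sign: AT1G16510 ran from -0.27 to 0.083, ABCB21 from -0.43 to 0.075 and CYP82C4 from -0.71 to 0.074. The cause was not tested. Of the 116 members with whole counts alone, 49 fell at 2 h, beside 18.5% of all loci. Members with few counts, counts that were not whole (18) or an overlapping gene are the least certain.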
